A study of Mus musculus with 3 samples.

Results

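Interferon-stimulated genes and the guanylate-binding and immunity-related GTPases were described in macrophages of the 4T1 model. The set was a list of 45 gene symbols, 35 antiviral genes and 10 GTPase genes. Each gene was represented by 1 probe set, that of the highest mean among those with a single gene symbol, provided that it lay above a floor of 5.3 (log2) on at least 1 array. By this rule 40 of the 45 genes were read, 33 antiviral and 7 GTPase genes, of 18193 genes in the whole table, 12025 of them above the floor. *Isg15*, *Gbp4* and *Tgtp1* had only probe sets with several symbols, and *Gbp5* and *Ifi44* had no probe set under their symbol, so none of these was read.

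The data were 3 Affymetrix arrays of mouse total RNA, 1 from each group. 4T1 is a mouse mammary cancer line of BALB/c origin. Per the study's methods it was inoculated into the fat pad of mice of that strain aged 5 to 6 weeks, whose sex is not given. After 5 weeks, macrophages were sorted for CD11b and F4/80 from the breast tumor (pTAMs) and from the metastatic lung matched to it (mTAMs). BMDM were differentiated in culture from the bone marrow of healthy mice and put through the same sort, so they differ from TAMs in culture as well as in tumor exposure. No group carried a transgene or drug in the labels. The strain of the BMDM donors, the number of animals behind each array and a Ly6C gate for the arrays are not given in the sources used here. With 1 array per group there was no test, p-value or error across samples, and a difference below compares 3 RNA samples.

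Interferons are secreted proteins that signal through surface receptors and JAK kinases to transcription factors. Type I interferons act mainly through the interferon-stimulated response element (ISRE) of their target genes, and interferon-γ through the gamma-activated site (GAS). Many target genes respond to both, and the GTPases are known for strong induction by interferon-γ in macrophages, where they attack the vacuoles of intracellular pathogens.

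The promoters of some genes of both kinds are shown, all of them with a match to the core of the ISRE. Each line gives the 120 bases before the transcription start of RefSeq (GRCm38.p6), 5′ to 3′ on the strand of the gene. Capitals mark the ISRE core GAAANNGAAA, searched on both strands, and the GAS core TTCNNNGAA, which reads the same on both strands.
*Gbp2*, chr3:142620543-142620662, plus strand: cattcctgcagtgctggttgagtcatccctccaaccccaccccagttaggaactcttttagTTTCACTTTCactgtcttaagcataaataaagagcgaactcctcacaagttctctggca
*Gbp3*, chr3:142559924-142560043, plus strand: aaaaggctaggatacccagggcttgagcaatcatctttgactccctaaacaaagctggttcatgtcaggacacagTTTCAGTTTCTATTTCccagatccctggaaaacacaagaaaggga
*Gbp7*, chr3:142530216-142530335, plus strand: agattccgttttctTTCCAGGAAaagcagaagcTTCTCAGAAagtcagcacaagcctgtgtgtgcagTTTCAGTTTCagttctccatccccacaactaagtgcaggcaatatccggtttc
*Igtp*, chr11:58199436-58199555, plus strand: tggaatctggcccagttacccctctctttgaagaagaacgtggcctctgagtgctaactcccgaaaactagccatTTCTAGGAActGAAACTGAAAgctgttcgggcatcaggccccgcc
*Irgm1*, chr11:48871421-48871540, minus strand: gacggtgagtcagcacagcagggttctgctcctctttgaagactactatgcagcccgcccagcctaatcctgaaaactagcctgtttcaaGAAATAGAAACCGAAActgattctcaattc
*Oas1a*, chr5:120907526-120907645, minus strand: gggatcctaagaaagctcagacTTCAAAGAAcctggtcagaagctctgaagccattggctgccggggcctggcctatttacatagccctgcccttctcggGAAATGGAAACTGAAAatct
*Ifit1*, chr19:34640769-34640888, plus strand: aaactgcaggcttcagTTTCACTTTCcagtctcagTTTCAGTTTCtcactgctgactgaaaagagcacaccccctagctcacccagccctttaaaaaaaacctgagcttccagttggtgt
*Rsad2*, chr12:26456453-26456572, minus strand: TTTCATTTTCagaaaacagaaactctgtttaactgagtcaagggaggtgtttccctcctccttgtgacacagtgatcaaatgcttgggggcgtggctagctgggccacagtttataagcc

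In these windows *Gbp3*, *Irgm1* and *Oas1a* each had a pair of overlapping ISRE matches, and *Ifit1* had separate ones at -104 and -85. *Gbp3* has 2 starts in the table, and the first is shown. In *Igtp* the GAS match at -45 and the ISRE match at -34 lay side by side. *Gbp7* had GAS matches at -106 and -87, upstream of its ISRE match at -53.

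Over the whole window of 300 bases, from 250 before to 50 after the start, a promoter was found for 28 of the 40 genes read. The ISRE core was present in 5 of 5 GTPase genes and in 10 of 23 antiviral genes, against 3.99% of 27025 genes with a window. The GAS core was present in 2 of 5 GTPase genes and 7 of 23 antiviral genes, against 9.55% of all. Before the start alone, the ISRE core was in 5 of 5 GTPase and 7 of 23 antiviral genes (3.46% of all genes), and the GAS core in 2 and 5 (8.13%). In *Bst2* and *Ifitm3* a GAS match overlapped an ISRE match. *Irgm1*, with an ISRE match, was the GTPase gene without a higher value in TAMs, and the other GTPase genes with a match were higher. Of the 10 antiviral genes with an ISRE match, *Rsad2* was higher than BMDM in both TAM arrays in the deposited values. *Ifih1* and *Trim30a* differed in sign between the TAM arrays. *Oas1a*, *Oas3*, *Ifit1*, *Ifit3*, *Ifitm3*, *Bst2* and *Eif2ak2* were lower in both. A match describes letters in a window and is not a measured site.

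**Figure D1:**
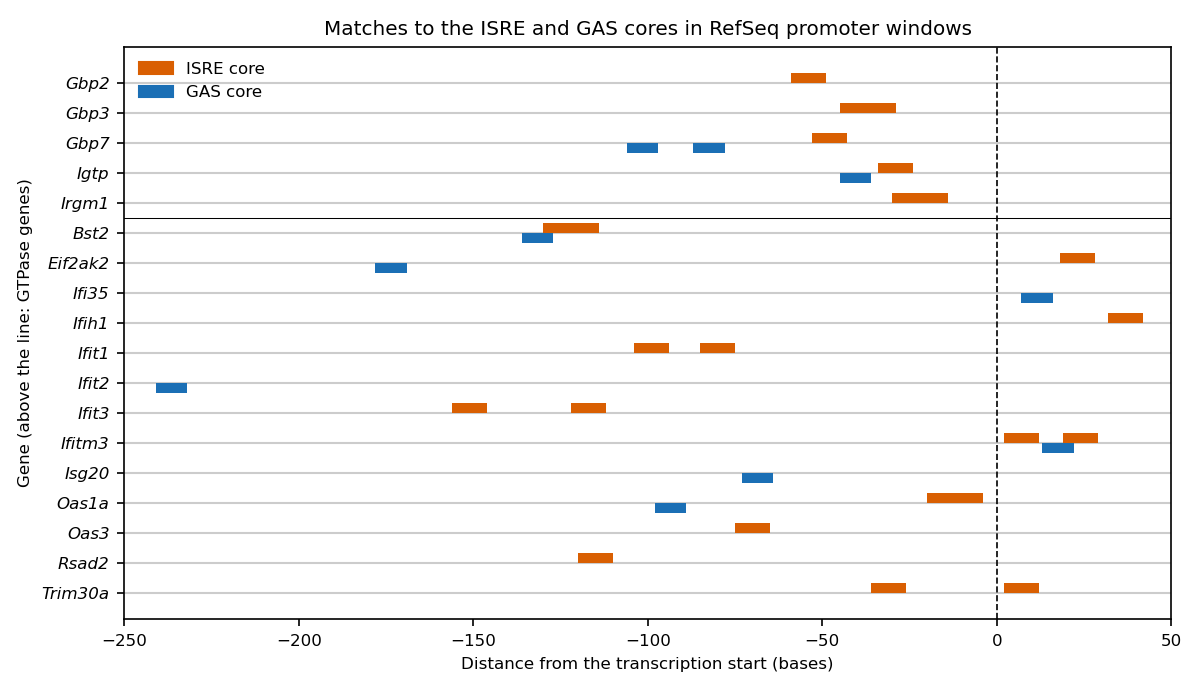
Positions of ISRE core (orange) and GAS core (blue) matches by distance in bases from the transcription start, for the 18 genes read that had either, 1 line per gene; *Trim30a* has 2 starts, and each of its matches is placed by its own. All 5 GTPase genes have an ISRE match between -59 and -15, and the matches of the antiviral genes are spread over the window.

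The arrays held 45037 probe sets each, with medians between 5.36 and 5.43, and 11423 to 11611 genes above the floor. Differences are given on the log2 scale, where 1 is 2-fold, and a gene was counted as higher or lower from 2-fold on. All 12 macrophage markers were above the floor on every array, and their median level was 12.25 (BMDM), 12.07 (pTAMs) and 11.86 (mTAMs). Single markers differed more. In pTAMs 5 of the 12 were 2-fold or more above BMDM and 1 below, and in mTAMs 3 above and 1 below. In mTAMs against pTAMs 0 of the 12 were higher and 3 lower by 2-fold or more, against 5.36% and 2.58% of all genes. Markers of several other cell types were not at background in TAMs. For the macrophage counts and those that follow, 8.78% of all genes were 2-fold or more above BMDM in pTAMs and 11.5% in mTAMs. Lower by 2-fold or more were 7.5% and 14.4%. The median level of 14 neutrophil markers was 5.96 in BMDM, 10.49 in pTAMs and 12.62 in mTAMs, and all 14 were above the floor in both TAM arrays. Of the epithelial or carcinoma markers 8 of 9 in pTAMs and 6 of 8 in mTAMs were 2-fold or more above BMDM, among them *Krt8* (5.34 in BMDM, 10.36 in pTAMs, 9.57 in mTAMs). Of the lung epithelial markers 0 of 7 were higher in pTAMs and 5 of 10 in mTAMs, among them the club cell gene *Scgb1a1*, which was below the floor in BMDM and pTAMs and at 12.17 in mTAMs. In pTAMs and mTAMs, respectively, fibroblast markers were higher in 5 of 9 and 5 of 9, endothelial in 1 of 7 and 1 of 6, T cell in 0 of 6 and 2 of 6, NK cell in 1 of 3 and 2 of 3, and B cell in 0 of 3 and 1 of 3. The endothelial counts are near the shares of all genes, and lists of 3 compared genes are too short to read. Dendritic cell markers were higher in 5 of 9 and 2 of 8, monocyte markers in 7 of 8 and 6 of 8, and alveolar macrophage markers in 5 of 8 and 11 of 13. No marker of plasmacytoid dendritic cells, which produce type I interferon, was higher in 7 and 6 compared, a list that includes *Bst2*. Some markers went the other way by 2-fold or more. Lower in pTAMs were 3 of 8 alveolar macrophage markers (0 of 13 in mTAMs). In each TAM array 1 of 8 monocyte and 1 of 6 T cell markers were lower. In mTAMs alone 1 of 6 endothelial and 1 of 6 plasmacytoid dendritic cell markers were lower. Immediate early and heat shock genes were higher in 17 and 18 of 20, and 15 of 15 cell cycle genes were lower in both. The part of these cells and of tissue dissociation in the values below was not tested, and in bulk RNA more cells of a type and more RNA per cell cannot be told apart.

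The GTPase genes were far higher in TAMs than in BMDM. In pTAMs 6 of 7 exceeded BMDM by 2-fold or more and 0 were lower, where 8.78% of 11859 genes were higher and 7.5% lower. In mTAMs 6 of 7 were higher and 0 lower, where 11.5% of 11945 genes were higher and 14.4% lower. The median log2 difference of the 7 genes was 3.35 in pTAMs and 2.89 in mTAMs, and over all genes it was -0.05 and -0.11. Both comparisons use the same BMDM array, so they are not independent of each other.

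Guanylate-binding proteins are large GTPases that coat pathogens and pathogen vacuoles. *Gbp2* read 7.72 in BMDM, 11.20 in pTAMs and 11.14 in mTAMs, differences of 3.48 (11.2-fold) and 3.42 (10.7-fold). *Gbp3* read 7.25, 10.76 and 10.45 on the same arrays, 11.4-fold higher in pTAMs and 9.19-fold higher in mTAMs. For *Gbp7* the values were 7.51, 11.29 and 10.92, and the folds 13.7 and 10.6. These 3 genes, which lie in 1 cluster on chromosome 3, differed between the TAM arrays by no more than 0.37. *Gbp6*, from the cluster on chromosome 5, read 6.20 in BMDM, 9.45 in pTAMs and 8.75 in mTAMs, 9.51-fold and 5.86-fold higher. Guanylate-binding proteins are close paralogs, and the probe sets read for *Gbp2* and *Gbp3* are of kinds that can detect related sequences or several transcripts.

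The second probe sets gave much the same. That of *Gbp2* is not of a shared kind and read 7.24 in BMDM, 10.69 in pTAMs and 10.66 in mTAMs. The second probe set of *Gbp7* read 6.80, 10.57 and 10.27. That of *Gbp6* lay below the floor in BMDM (5.03) and at 8.71 in pTAMs and 8.30 in mTAMs. In each of the 4 GTPase genes with several probe sets, all had the same direction and the same 2-fold call, with gaps of up to 0.43 in pTAMs and 0.72 in mTAMs against BMDM.

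Of the immunity-related GTPases 1 effector and 2 regulators were read. *Iigp1*, an effector that is loaded onto vacuoles, read 7.31 in BMDM, 10.66 in pTAMs and 10.20 in mTAMs (10.2-fold and 7.41-fold higher). *Igtp*, also called Irgm3 and known to keep effectors inactive on host membranes, read 9.23, 10.97 and 10.65 (3.34-fold and 2.68-fold higher). *Irgm1*, a regulator of the same kind, read 10.22 in BMDM, 9.89 in pTAMs and 9.75 in mTAMs. *Irgm1* was thus the single GTPase gene read with its highest value in BMDM, by differences of -0.33 and -0.47 that stayed under 2-fold.

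**Figure D2:**
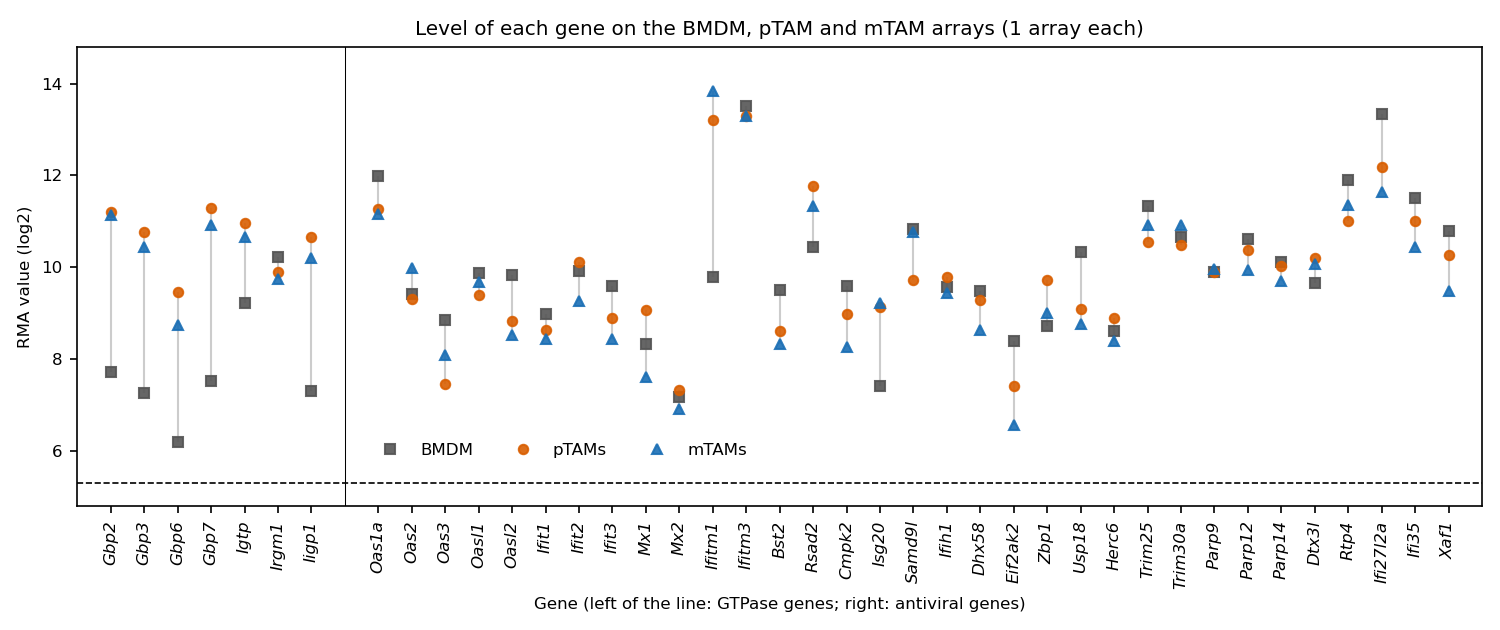
RMA value (log2) of each gene read on the BMDM (grey square), pTAM (orange circle) and mTAM (blue triangle) array, 1 array each. The dashed line is the floor of 5.3. For 6 of 7 GTPase genes both TAM values lie far above BMDM, and *Ifitm1* is the antiviral gene with the widest gap.

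Between the TAM arrays all 7 GTPase genes were lower in mTAMs in the deposited values, and 5 of them after cyclic loess normalization, which turned the small differences of *Gbp2* and *Irgm1*. None was lower by 2-fold, and 54.1% of 11801 genes were lower by any amount. The differences ran from -0.06 (*Gbp2*) to -0.70 (*Gbp6*), with a median of -0.32 against -0.06 over all genes.

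The antiviral genes did not share this difference. In pTAMs against BMDM 4 of 33 (12.1%) passed 2-fold upward and 4 downward, not far from the 8.78% and 7.5% of all genes. Their median was -0.25. In mTAMs against BMDM 2 of 33 (6.06%) were higher and 9 (27.3%) lower, against 11.5% and 14.4% of all genes, with a median of -0.55. BMDM had the highest of the 3 values in 20 of 33 genes, which was the case for 46.3% of the 12025 genes above the floor; cyclic loess normalization took *Oasl1*, *Ifitm3* and *Samd9l* out of these 20. In the deposited values the lowest of the 3 was that of mTAMs in 19 of 33, against 43.3% of the 12025 genes.

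*Ifitm1*, which encodes a membrane protein that blocks virus entry, stood out. Its values were 9.78 in BMDM, 13.21 in pTAMs and 13.84 in mTAMs, 10.8-fold and 16.7-fold higher. It has a single probe set here. Its neighbor and paralog *Ifitm3* was close to equal on the 3 arrays, at 13.52, 13.30 and 13.30. The third membrane factor, *Bst2* (tetherin, which holds budding virions at the cell surface), ran the other way, at 9.50 in BMDM, 8.62 in pTAMs and 8.33 in mTAMs, 2.25-fold lower in mTAMs. *Ifitm2* and *Ifitm6* lie in the same gene cluster and belong to the other interferon-stimulated genes counted below. *Ifitm6* read 9.45, 11.58 and 13.22, and *Ifitm2*, chosen after its values were seen, 11.07, 12.09 and 12.74. *Ifitm1*, *Ifitm2* and *Ifitm6* thus rank the arrays BMDM, pTAMs, mTAMs from low to high. So do the median levels of the neutrophil, monocyte, alveolar macrophage, fibroblast, NK cell, lung epithelial and immediate early lists. Gene by gene, 4 of 8 monocyte markers were lower and 3 higher in mTAMs than in pTAMs, with a median difference of -0.29. The NK cell list has only 3 genes, of which 1 was lower in mTAMs than in pTAMs. The part of any of these lists in the *Ifitm* values was not tested.

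Enzymes that act on nucleotides and RNA were divided. *Isg20*, an RNA exonuclease, read 7.42 in BMDM, 9.13 in pTAMs and 9.22 in mTAMs (3.27-fold and 3.48-fold higher). *Rsad2* (viperin, which makes a chain-terminating nucleotide) read 10.44, 11.76 and 11.34, 2.50-fold higher in pTAMs. In mTAMs it was 1.87-fold higher, and both of its other probe sets passed 2-fold there, with differences of 1.16 and 1.11. *Cmpk2*, a mitochondrial nucleotide kinase and the gene next to *Rsad2* on chromosome 12, read 9.59, 8.97 and 8.27. It was 2.50-fold lower in mTAMs than in BMDM by this probe set, and its other probe set gave a difference of -0.67. These adjacent genes therefore differed from BMDM in opposite directions. *Samd9l*, an antiviral factor that restrains translation, read 10.83 in BMDM, 9.73 in pTAMs and 10.77 in mTAMs, so that it was 2.14-fold lower in pTAMs alone.

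In pTAMs all 5 genes of the 2′-5′-oligoadenylate synthetase family were lower than in BMDM, as were 54.3% of 11859 genes by any amount. Active enzymes of this family make a product that activates RNase L. The median of the 5 genes was -0.72, and the difference of *Oas2* was only -0.11. *Oas3* read 8.85 in BMDM, 7.45 in pTAMs and 8.08 in mTAMs, 2.64-fold lower in pTAMs. *Oasl2* read 9.82, 8.83 and 8.52, a difference of -0.99 in pTAMs and of -1.30 in mTAMs. *Oas1a* read 11.99, 11.27 and 11.15. The other members stayed under 2-fold throughout, *Oasl1* at 9.88, 9.40 and 9.68 and *Oas2* at 9.41, 9.30 and 9.98. *Oas2* was the only one of the 5 with its highest value in mTAMs, to which cyclic loess normalization added *Oasl1*.

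IFIT proteins bind viral RNA ends. *Ifit1* read 8.99, 8.63 and 8.44 in BMDM, pTAMs and mTAMs, and *Ifit3* 9.60, 8.90 and 8.43, which put *Ifit3* 2.25-fold lower in mTAMs than in BMDM. *Ifit2* read 9.91, 10.12 and 9.26. All 3, and 43.3% of the 12025 genes above the floor, had their lowest value in mTAMs. The same held for both Mx genes, which encode dynamin-like GTPases that trap viral components. *Mx1* read 8.32 in BMDM, 9.06 in pTAMs and 7.60 in mTAMs, and *Mx2* 7.18, 7.32 and 6.90.

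Among the sensors of foreign nucleic acid, *Eif2ak2* (PKR, which stops translation upon binding double-stranded RNA) had the lowest difference of all antiviral genes. It read 8.40 in BMDM, 7.41 in pTAMs and 6.56 in mTAMs, 3.58-fold lower in mTAMs. Its other probe sets gave -1.03 and -1.62 for the same comparison. *Zbp1*, a sensor of Z-form nucleic acid that can trigger necroptosis, read 8.71, 9.72 and 9.01, 2.01-fold higher in pTAMs, and its second probe set gave 1.27 in place of 1.01. The RNA helicases stayed under 2-fold from BMDM by the probe set read, with *Ifih1* (MDA5) at 9.57, 9.79 and 9.43 and *Dhx58* (LGP2) at 9.48, 9.29 and 8.64. A second probe set of *Dhx58* just passed 2-fold in mTAMs against BMDM (-1.01).

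Of the genes for ISG15 conjugation and ubiquitin ligases, *Usp18*, which removes ISG15 and dampens the type I interferon receptor, differed most. It read 10.34 in BMDM, 9.08 in pTAMs and 8.76 in mTAMs, 2.39-fold and 2.99-fold lower. *Herc6*, the main ISG15 ligase of the mouse, read 8.62, 8.89 and 8.39, and 1 of its 3 other probe sets read 7.86 on every array. *Trim25*, a ubiquitin ligase that acts on RIG-I, read 11.34, 10.55 and 10.92, and 1 of its other probe sets went the opposite way in mTAMs (7.94 in BMDM, 7.76 in pTAMs and 8.87 in mTAMs). *Trim30a*, a negative regulator of NF-κB signaling, read 10.65, 10.48 and 10.92.

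The ADP-ribosyltransferase genes and their partner were near to equal. *Parp9* read 9.89, 9.89 and 9.97 on the BMDM, pTAM and mTAM arrays, and its partner ubiquitin ligase *Dtx3l* 9.65, 10.21 and 10.06. *Parp12* read 10.62, 10.37 and 9.95. *Parp14* read 10.12, 10.02 and 9.69, but its second probe set gave 7.25, 8.38 and 7.96, a difference of 1.13 for pTAMs in place of -0.10. None of these 4 genes passed 2-fold by the probe set read.

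Of the remaining antiviral genes, all 4 read were lower in both TAM arrays than in BMDM. By any amount, 54.3% of all genes were lower in pTAMs and 56.6% in mTAMs. *Ifi27l2a*, which encodes a small interferon-induced membrane protein, read 13.35 in BMDM, 12.18 in pTAMs and 11.64 in mTAMs (2.25-fold and 3.27-fold lower). *Xaf1*, a gene with a role in apoptosis, read 10.80, 10.27 and 9.49 (2.48-fold lower in mTAMs). *Ifi35* read 11.50, 11.00 and 10.44 (2.08-fold lower in mTAMs), a call that its other probe sets, at -0.63 and -0.84, did not share. *Rtp4*, which encodes a receptor-transporting protein, read 11.91, 11.01 and 11.36, and its weaker probe set gave -2.09 and -1.43 in place of -0.90 and -0.55.

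**Figure D3:**
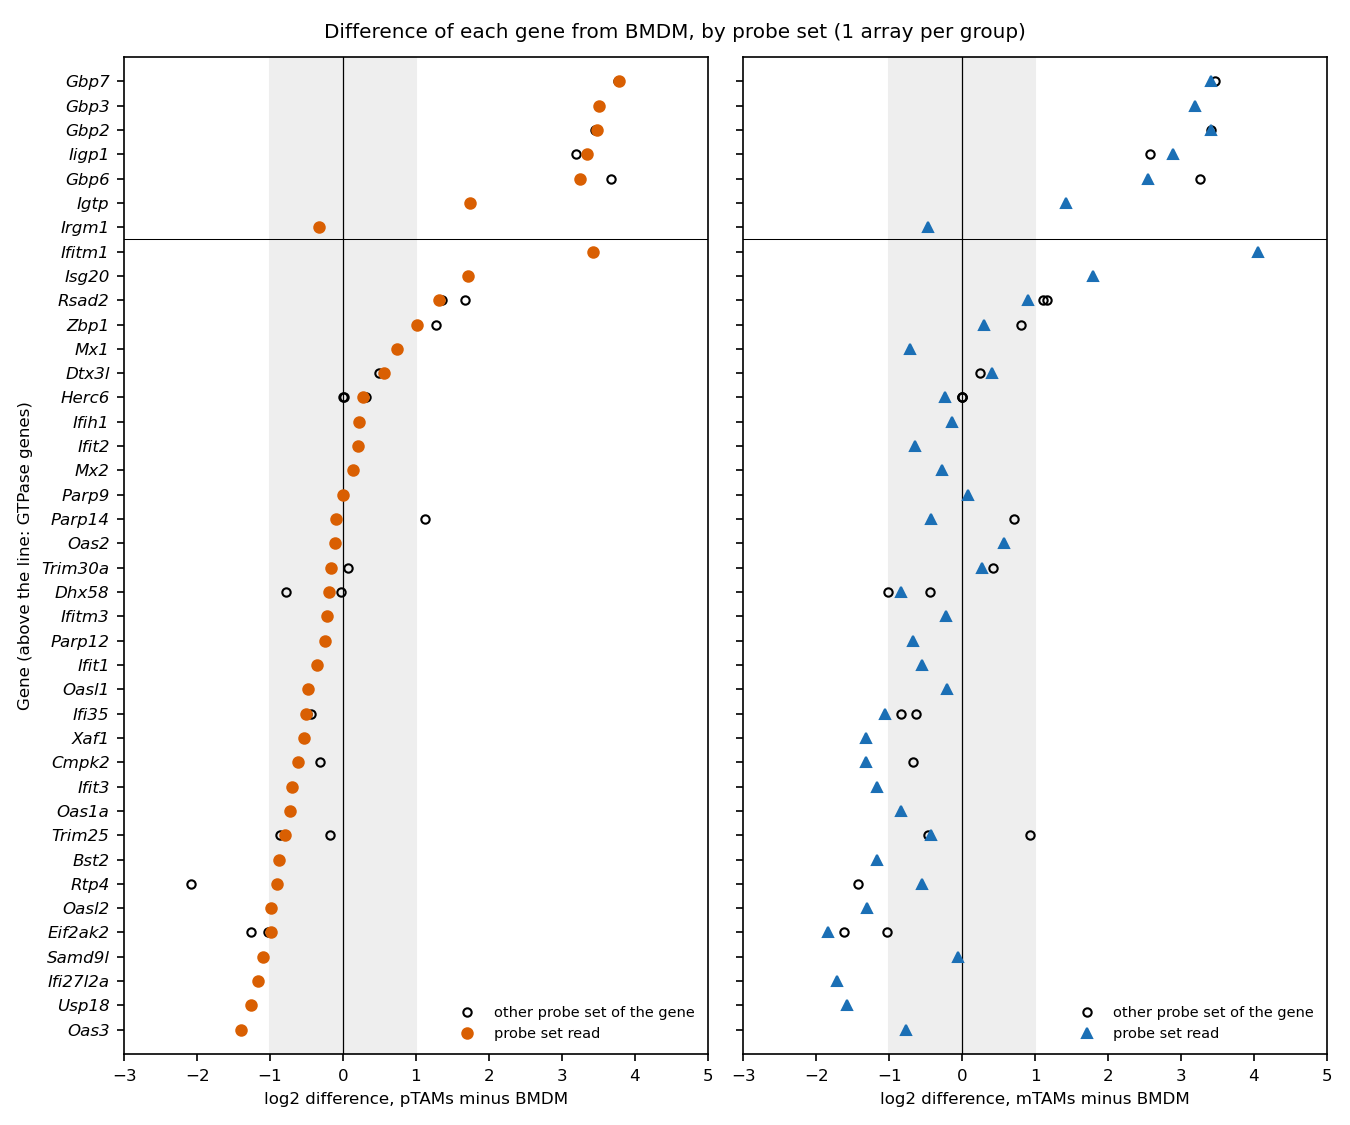
Log2 difference from BMDM of each gene read, in pTAMs (left) and mTAMs (right). Filled points are the probe set read, open circles the gene's other probe sets above the floor, and the grey band marks differences under 2-fold. The GTPase genes other than *Irgm1* lie to the right of the band in both panels, and most antiviral genes lie in it or to its left.

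Of the 12 antiviral genes with several probe sets, 10 had one direction over all of them in pTAMs against BMDM, 10 in mTAMs against BMDM and 12 in mTAMs against pTAMs. The 2-fold call was the same over all probe sets in 9, 7 and 11 of the 12. The only technical spread at hand was that of the difference among probe sets for the same gene. Over 5353 genes its SD was 0.43 in pTAMs and over 5388 genes 0.52 in mTAMs, each relative to BMDM, and over 5222 genes it was 0.28 between the TAM arrays. Variation among animals, sorts and arrays is not part of it. Differences of single antiviral genes near 2-fold are therefore not firm, and those of *Gbp2*, *Gbp3*, *Gbp6*, *Gbp7*, *Iigp1* and *Ifitm1* are several times this SD.

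In mTAMs against pTAMs 1 antiviral gene was at least 2-fold higher, *Samd9l* (2.06-fold), and 1 at least 2-fold lower, *Mx1* (2.75-fold), where 5.36% of 11801 genes were higher and 2.58% lower. The third probe set of *Trim25* also passed 2-fold upward (1.11), while the one read gave 0.37. The median was -0.32. In all, 22 of 33 antiviral genes (66.7%) were lower in mTAMs by any amount, against 54.1% of all genes, and of these *Oas1a* (-0.12) turned positive under cyclic loess normalization. Differences of -0.70 and beyond were found for *Ifit2* (-0.86), *Eif2ak2* (-0.85), *Xaf1* (-0.78), *Zbp1* (-0.71) and *Cmpk2* (-0.70), beside *Mx1*. The other probe sets of *Eif2ak2* gave 0.00 and -0.36 here, so its value is not firm. *Oas2* (0.68), *Oas3* (0.63) and *Ifitm1* (0.63) had the highest positive differences after *Samd9l*.

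The rest of the pathway was described by lists of its ligands, receptors, sensors and other targets. The interferon genes themselves were near background, apart from *Ifnz*. *Ifng* read 3.18 on all 3 arrays, and *Ifnb1* stayed below the floor at 4.48 in BMDM, 5.12 in pTAMs and 5.18 in mTAMs. Of 10 interferon genes on the array 3 passed the floor, *Ifna1* (5.61 on each array), *Ifna9* (5.66, 5.41 and 5.41) and *Ifnz* (7.13, 6.93 and 6.71), and none differed by 2-fold. An mRNA near background in sorted macrophages says nothing of interferon made by other cells of the tissue.

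Of 21 genes for interferon receptors and signal transducers, 5 in pTAMs and 5 in mTAMs were 2-fold or more above BMDM, which is 23.8% in each. None was lower in either, and the medians were 0.20 and 0.18. Of all genes 8.78% and 11.5% were higher and 7.5% and 14.4% lower. *Socs3*, a feedback inhibitor of cytokine receptors, was below the floor in BMDM (4.21) and read 11.86 in pTAMs and 12.75 in mTAMs, at least 94.4-fold and at least 175-fold higher. *Irf1*, a transcription factor induced by interferon-γ, read 9.05, 11.38 and 11.62 (5.03-fold and 5.94-fold higher). *Jak2*, a kinase of the interferon-γ receptor, read 8.44, 10.18 and 9.73. *Ifngr1*, which encodes the ligand-binding chain of that receptor, was 2.19-fold higher in pTAMs and 3.10-fold higher in mTAMs. Chosen after their values were seen, the other chains of the type I and interferon-γ receptors stayed under 2-fold, *Ifngr2* at 9.40, 9.55 and 10.04, *Ifnar1* at 9.14, 8.98 and 8.98 and *Ifnar2* at 10.96, 10.80 and 10.91, and *Irf7*, which amplifies type I interferon, read 11.04, 10.36 and 10.15. Between the TAM arrays *Irf5* and *Irf8* were each 2.08-fold lower in mTAMs.

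Other GTPases of the same families, 7 in number, had 4 genes at least 2-fold higher in pTAMs (57.1%), 2 in mTAMs (28.6%) and 0 lower. The shares of all genes were 8.78% and 11.5% higher and 7.5% and 14.4% lower. The medians of the 7 genes were 1.15 and 0.63. *Gbp2b*, formerly Gbp1, read 7.18 in BMDM, 11.23 in pTAMs and 11.04 in mTAMs (16.6-fold and 14.5-fold higher). *Gbp8* was below the floor in BMDM (3.43) and read 9.81 and 8.77 in TAMs, at least 22.8-fold and at least 11.1-fold higher. *Ifi47* read 10.28, 11.43 and 10.86, and *Gm4951* 6.95, 8.83 and 7.81, both past 2-fold in pTAMs alone. The regulator *Irgm2* stayed within 2-fold at 8.60, 8.92 and 9.23, as did *Irgc1* (6.40, 6.42 and 6.40) and *Irgq* (7.34, 7.03 and 6.77), the latter pair not known for interferon induction. *Gbp8* (-1.04) and *Gm4951* (-1.02) were at least 2-fold lower in mTAMs than in pTAMs.

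Interferon-γ targets of antigen presentation and chemokines lay mostly above BMDM. In pTAMs 16 of 28 passed 2-fold (57.1%, median 1.15) and in mTAMs 13 of 29 (44.8%, median 0.92), with 0 lower. Of all genes 8.78% and 11.5% were higher and 7.5% and 14.4% lower. *Cxcl9*, a T cell chemokine, was below the floor in BMDM and read 10.82 in pTAMs and 10.56 in mTAMs. The MHC class II genes *H2-Eb1* (7.87, 12.85 and 12.52) and *H2-Ab1* (7.92, 12.71 and 12.28) and the invariant chain gene *Cd74* (8.38, 13.03 and 12.70) followed, which dendritic and B cells also express. In mTAMs against pTAMs 1 of 29 was higher, the complement inhibitor gene *Serping1* (5.23 in pTAMs, 8.10 in mTAMs). There 3 were lower, led by the checkpoint ligand gene *Pdcd1lg2* (8.15 and 6.57). In that comparison 5.36% of all genes were higher and 2.58% lower.

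The other interferon-stimulated genes exceeded the share of all genes upward, and their downward shares were near it. In pTAMs 12 of 47 passed 2-fold upward (25.5%) and 3 downward (6.38%), against 8.78% and 7.5% of all genes. The median was -0.01. In mTAMs 11 of 49 were higher (22.4%) and 9 lower (18.4%), against 11.5% and 14.4% of all genes, with a median of -0.21. *Slfn1* read 5.66 in BMDM, 9.69 in pTAMs and 10.78 in mTAMs, *Slfn4* 9.24, 12.28 and 13.00, and *Cd69* 4.24, 7.99 and 9.39. The lowest difference from BMDM in both was that of *Ube2l6* (8.84, 6.70 and 5.99), chosen after its values were seen. Against pTAMs, 6 of 49 (12.2%) were higher in mTAMs, led by *Gca* (5.26 and 7.60), and 3 (6.12%) lower. Of all genes 5.36% were higher and 2.58% lower there. The nucleic acid sensors and adaptors, 16 genes, had 2 higher and 1 lower in pTAMs and 2 higher and 3 lower in mTAMs, shares of 12.5% and 6.25% and of 12.5% and 18.8% that lie near those of all genes (8.78% and 7.5%, 11.5% and 14.4%). Among these *Sting1* read 8.67, 10.09 and 9.40, *Samhd1* 10.30, 11.37 and 11.63, *Myd88* 10.10, 10.43 and 11.38, and *Tlr7* 9.75, 8.37 and 8.71. *Ifi204* read 8.41, 9.10 and 8.20.

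**Figure D4:**
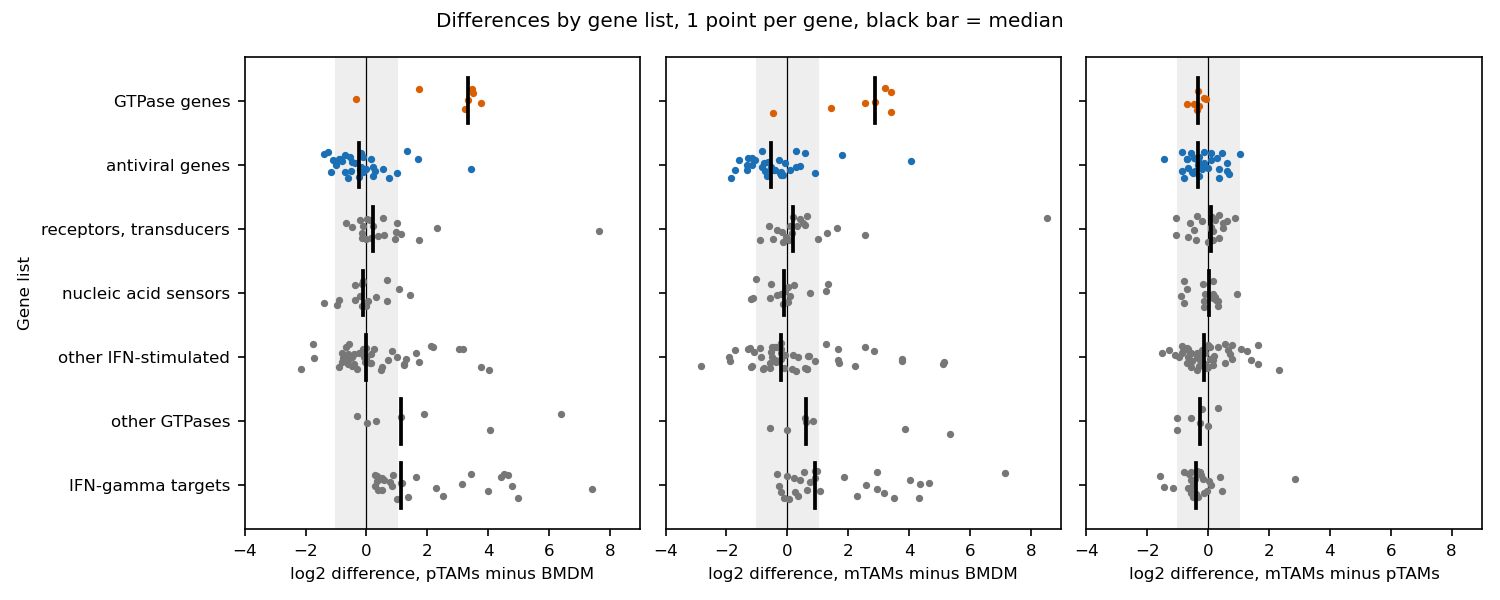
Log2 differences of single genes (points, spread vertically for sight) by list, with the list's median as a black bar and the range under 2-fold in grey, for pTAMs against BMDM, mTAMs against BMDM and mTAMs against pTAMs. Against BMDM the GTPase median (3.35 and 2.89) lies apart from the antiviral median (-0.25 and -0.55), and in mTAMs against pTAMs both medians are -0.32.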

How the data were processed

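The authors deposited 1 table of log2 values from RMA (version not given in the sources used here), which corrects background, normalizes quantiles between arrays and summarizes probe sets, here rounded to 2 decimals. There were 3 arrays, grouped by the titles of their labels, and no columns of other samples. Probe sets were named by the platform annotation (34945 with 1 symbol, 932 with several, 9160 with none). All 64 probe sets of member genes were found in RefSeq (GRCm38.p6), which also gave the promoters. The array table names no genome build.

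Genes above 5.3 on at least 1 of the arrays compared entered a comparison, and folds against values at or below 5.3 are lower bounds. The floor was fixed by the rule for the genes. In 86 sensory receptor probe sets the 95th percentile was 5.56, so values just above 5.3 may be background; no gene read was below 6.20 on any array. Calls were made at 2-fold, and the number of arrays, 1 per group, limits the precision.

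The genes, the 6 pathway lists and the 15 marker lists were chosen with earlier results of these data known. Named were all genes read, all genes of a pathway list of up to 12 compared genes or otherwise those with the largest differences (4 against BMDM, 2 between TAMs), and up to 2 markers per list by level in TAMs; not all of the latter are printed. Alternatives were 3 normalizations, 2 ways of choosing probe sets, 3 floors and a 3-fold threshold. The procedure was tested on simulated data. Work was done in Python 3.11.15 (numpy 2.4.6, pandas 2.3.3, matplotlib 3.10.9) and R 4.3.3 (limma 3.58.1). Protein sequences were not analysed here.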

Additional observations from a re-analysis of the deposited data

How the results depend on the processing

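Of 108 counts of higher or lower genes recomputed under the alternatives, 101 stayed within 1.5 times the value reported. The 48 medians kept their sign and moved by less than the SD between probe sets. The 3 changes of floor left the differences of every gene read as deposited. Results under them could not move and say nothing of stability. The limit of 1.5 times also takes in some shifts. Antiviral genes lower in mTAMs than in BMDM fell from 9 to 6 under cyclic loess normalization, and likewise where each gene's probe sets were averaged. Those lower in pTAMs than in BMDM rose from 4 to 6 under centering of array medians and under that averaging. The GTPase median lay between 3.23 and 3.47 in pTAMs and between 2.57 and 3.09 in mTAMs against BMDM, with 5 to 6 genes at least 2-fold higher, and the antiviral median between -0.32 and -0.20 and between -0.62 and -0.31. Another setting left out probe sets of the kinds that can detect related sequences or several transcripts. There 1 antiviral gene was higher in mTAMs than in BMDM and 0 were lower than in pTAMs, since *Isg20* and *Mx1* then have no probe set. At a 3-fold threshold, 2 antiviral genes were higher and 0 lower in pTAMs against BMDM, 2 were lower in mTAMs against BMDM, and 0 were higher and 0 lower in mTAMs against pTAMs. Under a change of scaling 2-fold calls turned for *Oasl2*, *Eif2ak2* and *Zbp1* in pTAMs and *Ifit3*, *Bst2*, *Rsad2* and *Ifi35* in mTAMs, and the sign against BMDM turned in mTAMs for *Oasl1*, *Ifitm3*, *Samd9l* and *Ifih1*, whose differences were -0.22 to -0.06. Cyclic loess normalization moved the median of all genes in mTAMs against BMDM from -0.11 to 0.0012 and their calls from 1368 higher and 1715 lower to 1548 and 1259; the cause was not tested. No paired analysis was possible because each group has 1 array. A background of probe signal, which the table does not give apart, limits what can be said of genes near the floor.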
